A study of Homo sapiens with 4 samples.

Results

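hsa-miR-296-3p and hsa-miR-629-5p, called miR-296-3p and miR-629-5p below, were followed across the 4 miRNA sequencing libraries of an RNA pull-down made with probes to the FN1 3′-UTR, the untranslated end of the fibronectin mRNA. They are 2 of the 843 miRNA names in the deposited table, of which 570 were known miRNAs and 273 had been predicted from the reads. They were picked because the study carried them forward as low-count miRNAs enriched with the positive probe in both cell lines. They were thus chosen by the ratios between the positive and the negative probe, which are given below as a description with no test. The other arm of each hairpin was followed as well. RefSeq holds 4 arms for the pair of hairpins and 3 of them were listed in the table, since miR-629-3p was not listed in any library.

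HGC27 and AGS, established human gastric cancer lines, carried the same genotype in every group, a stable FN1 3′ UTR overexpression delivered by lentivirus. In a pull-down, a biotinylated probe RNA on streptavidin beads is mixed with cell lysate, and the RNA that stays on the beads after washing is sequenced. Each line was taken through it once with the probe labelled positive and once with the one labelled negative, both made to the FN1 3′ UTR, which gave the groups HGC27 negative, HGC27 positive, AGS negative and AGS positive. The negative probe libraries came from cells that overexpressed the same 3′-UTR, so no library shows cells without it. Each group was 1 library from a pool of cultured cells, and no difference within a line can be set against a spread between replicates. Both a transcript and its antisense RNA are named for the beads in the labels, with no word on which is the positive probe, so no ratio below is assigned to a strand.

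A miRNA is cut as 1 arm of a short RNA hairpin and loaded into an Argonaute protein. It then pairs with target RNAs, mostly through its seed, bases 2 to 8 from the 5′ end, and target 3′-UTRs are where such pairing is best known to lower mRNA stability and translation. Either arm of a hairpin can be loaded, and the ends of a mature miRNA can differ by a base between molecules.

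The mature sequences are shown first because the rest of the description turns on their seeds, their runs of G and their 3′ ends. They run 5′ to 3′, with the seed in capitals. The sequences in the table were identical to RefSeq (GRCh38.p14) for the 3 listed arms, and miR-629-3p is from RefSeq alone.
miR-296-3p: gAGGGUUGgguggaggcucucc
miR-296-5p: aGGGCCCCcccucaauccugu
miR-629-5p: uGGGUUUAcguugggagaacu
miR-629-3p: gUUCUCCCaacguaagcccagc
predicted entry on chromosome 15: uGGGUUUAcguugggagaacuu

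The last of these was a predicted entry of the table that repeated miR-629-5p with 1 further U at its 3′ end. That U is also the next base of the RefSeq hairpin, where the known sequence spans bases 22 to 42 and the longer one bases 22 to 43. It was the only other entry that held bases 2 to 8 of miR-629-5p, and no entry shared bases 2 to 8 of miR-296-3p. Bases 2 to 7 alone were shared by 1 further predicted entry for miR-296-3p and by 2 for miR-629-5p, with at most 5 counts in a library.

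MIR296 lies on chromosome 20 of GRCh38 from 58817615 to 58817694 on the minus strand. The hairpin is 80 bases long and falls in the exon of AL132655.2, an annotated long intergenic non-coding RNA. Its 3p arm covers chr20:58817626-58817647 and its 5p arm chr20:58817661-58817681. MIR298, the neighbouring hairpin of this imprinted locus, is 532 bases away, and miR-298 was not listed in any library. MIR629 lies on chromosome 15 from 70079372 to 70079468 on the minus strand. It is 97 bases long and falls in an intron of TLE3, a transcriptional co-repressor gene transcribed from the same strand. Its 5p arm covers chr15:70079427-70079447, and no other miRNA hairpin was annotated within 10 kb.

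The tables held 1296853 to 2955078 counts per library, and 342 to 609 entries were listed in each. The deposited scores, tags per 1000000 rounded to whole numbers, used divisors of 2763256 to 7178936 tags, so that the counts listed were 35.7% to 50.0% of the divisors. One entry took a large share of each library. This was miR-148a-3p in HGC27, with 50.6% of the counts with the negative and 35.0% with the positive probe, and miR-372-3p in AGS, with 80.8% and 37.5%. Of the miRNAs that mark other tissues, those of blood (4 of 4) and neurons (1 of 1) were not listed. For muscle, miR-1-3p was listed in all 4 libraries, at 0.00190% to 0.0234% of the counts, and miR-133a-3p in none. The liver marker miR-122-5p was listed in all 4, at 0.000203% to 0.00314%, and 2 of 3 gut epithelium markers were, at 0.0264% to 0.0634% in sum, with miR-215-5p in none. The epithelial list, the miR-200 family and miR-203a-3p, had 5 of 6 members listed in each HGC27 library, 6 in AGS negative and 5 in AGS positive, with miR-141-3p not listed in the libraries with 5. The list summed to 0.156% and 0.0792% of the counts in HGC27 (negative and positive probe) and to 2.50% and 0.229% in AGS. The mesenchymal list (miR-199a and miR-214) summed to 0.567% and 0.0666% in HGC27 and to 0.000541% and 0.00137% in AGS. These sums moved with the probe as well as with the line, and their part in the values below was not tested.

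miR-296-3p had 89 counts in HGC27 negative, 510 in HGC27 positive, 8 in AGS negative and 487 in AGS positive. Per 1000000 tags this was 30.6 (exact 95% Poisson interval 24.6 to 37.7), 185 (169 to 201), 1.11 (0.481 to 2.20) and 114 (104 to 125) in the same order. Both positive probe libraries were high and AGS negative was the lowest, below HGC27 negative with intervals that did not overlap. All intervals given here cover counting error only, as reads amplified by PCR without molecular identifiers are not independent molecules. In a lysate of many cells, fewer cells with a miRNA and less of it per cell cannot be told apart.

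miR-629-5p in its known length, without the longer entry, was rarer than miR-296-3p in every library. The library HGC27 negative held 4 counts, HGC27 positive held 40, AGS negative held 3 and AGS positive held 236. Per 1000000 tags this was 1.38 (0.375 to 3.52), 14.5 (10.3 to 19.7), 0.418 (0.0862 to 1.22) and 55.2 (48.4 to 62.7). The negative probe libraries of both lines overlapped in their intervals, and AGS positive was the highest. Its ratios thus rest on denominators of 4 and 3 counts.

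**Figure D1:**
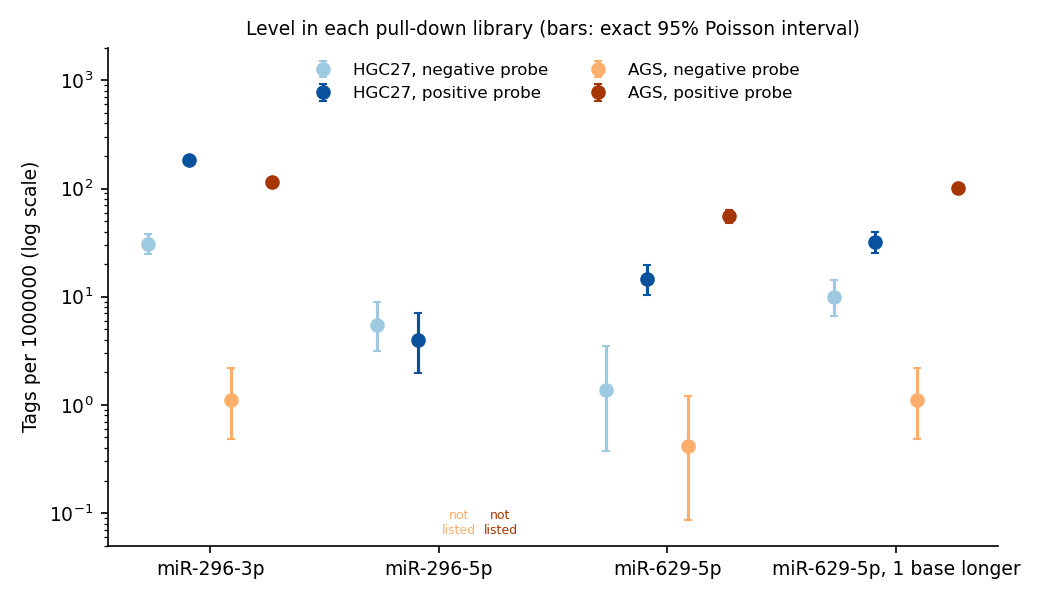
Tags per 1000000 (log scale) of miR-296-3p, miR-296-5p, miR-629-5p and the entry that is 1 base longer, in each of the 4 libraries, with exact 95% Poisson intervals as bars. The positive probe libraries lie above the negative ones for all but miR-296-5p, which overlapped between the probes in HGC27 and was not listed in AGS.

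The ratio of a miRNA was its score + 1 with the positive probe over its score + 1 with the negative probe. miR-296-3p had a ratio of 5.81 in HGC27 and of 57.5 in AGS. The fold of the counts, scaled by the divisors and with no pseudocount, was 6.03 (95% interval 4.80 to 7.64) in HGC27 and 102 (51.5 to 238) in AGS. For miR-629-5p the ratio was 7.50 in HGC27 and 56.0 in AGS, and the fold of the counts was 10.5 (3.80 to 40.5) and 132 (44.7 to 645). The pseudocount lowers the AGS ratios, and the rounding of the 8 and 3 counts of the negative probe library to scores of 1 and 0 raises them. With the same pseudocount on unrounded tags per 1000000 the AGS ratios were 54.4 for miR-296-3p and 39.7 for miR-629-5p.

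A ratio of at least 2 was common. It was reached by 37.5% of the 755 entries with a count in HGC27 and by 39.4% of 459 in AGS, or by 28.1% and 40.4% of the entries with at least 10 counts in 1 library of the line. Among entries with at least 10 counts in both lines, 21.2% (41 of 193) had such a ratio in each line, and 20.2% of the known entries among them did. Larger ratios were rarer. In HGC27, 5.46% of the entries with at least 10 counts had a ratio at or above that of miR-296-3p and 3.55% at or above that of miR-629-5p, and in AGS these shares were 2.17% and 2.61%. Because the miRNAs were picked for these ratios, nothing is read from their place.

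**Figure D2:**
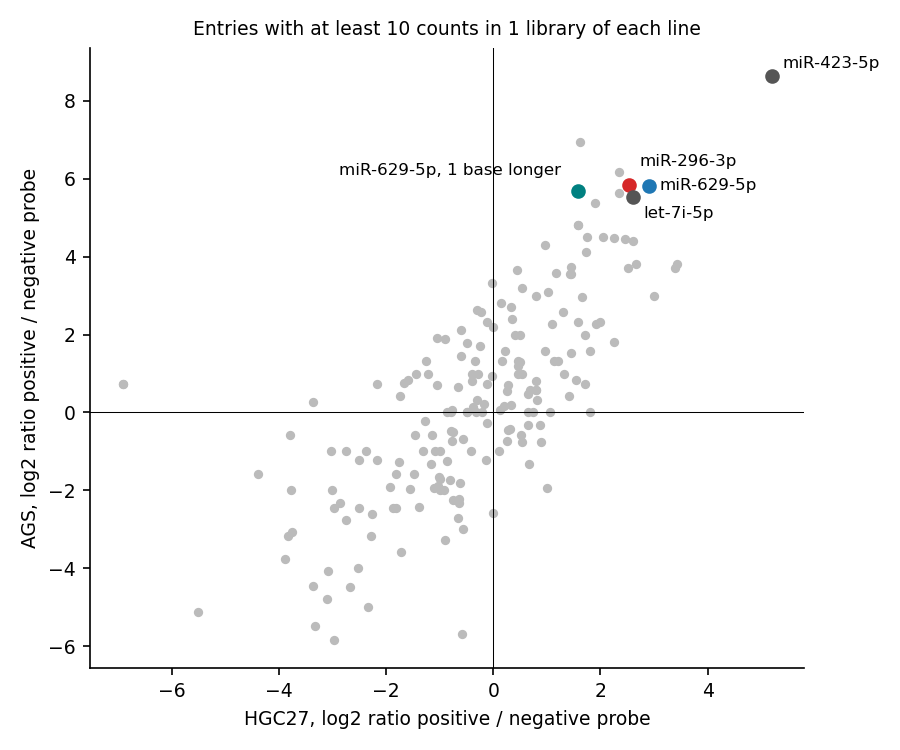
Log2 ratio of positive over negative probe in HGC27 (horizontal) and AGS (vertical), 1 point for each entry with at least 10 counts in 1 library of each line. miR-296-3p and miR-629-5p lie beside each other and beside let-7i-5p in the upper right, with miR-423-5p beyond them.

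The study took the 10 most enriched known miRNAs of each line among those enriched in both, and miR-296-3p stood at the edge of that list. Of 59 known miRNAs shared by the lines, it was the 10th in HGC27 and the 4th in AGS, while miR-629-5p was the 6th and the 5th. Just outside in HGC27 came miR-219a-1-3p with a ratio of 5.75 (21 and 125 counts) and miR-378a-5p with 5.47 (176 and 934 counts), against 5.81 for miR-296-3p. In AGS the last one inside was miR-22-3p with 22.6 and the first outside miR-98-5p with 22.1. The other miRNAs carried forward were far more abundant. miR-423-5p had 660 and 23084 counts in HGC27 and 259 and 62855 in AGS. let-7i-5p, a member of the let-7 tumour suppressor family, had 18337 and 106451 in HGC27 and 7864 and 216292 in AGS. The ratio of let-7i-5p was 6.11 in HGC27 and 46.2 in AGS. Without the pseudocount its AGS fold was 46.2 (45.2 to 47.3), against 102 for miR-296-3p and 132 for miR-629-5p.

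The longer entry of miR-629-5p held more counts than the known one in each library. It had 29 counts in HGC27 negative, 88 in HGC27 positive, 8 in AGS negative and 432 in AGS positive, and 557 of the 840 counts of both lengths, or 66.3%. Its ratio was 3.00 in HGC27 and 51.0 in AGS, so that the longer form was also higher with the positive probe. With both lengths added, the sums for miR-629-5p were 33 and 128 counts in HGC27 and 11 and 668 in AGS. These sums were below the 89 and 510 counts of miR-296-3p in HGC27 and above its 8 and 487 in AGS. The fold of the added counts was 4.08 (2.76 to 6.18) in HGC27, below the 10.5 of the known length alone, and 102 (56.7 to 205) in AGS. In HGC27 the ratio went from 7.50 to 3.92 when the lengths were added.

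The known length made up 12.1% of both lengths in HGC27 negative (Wilson 95% interval 4.82% to 27.3%) and 31.3% in HGC27 positive (23.9% to 39.7%). In AGS it made up 27.3% (9.75% to 56.6%) and 35.3% (31.8% to 39.0%). The odds of the known length were 3.28 times as high with the positive probe in HGC27 (exact interval 1.05 to 13.7) and 1.46 times in AGS (0.345 to 8.60). A difference between the probes in the length of miR-629-5p was not detectable at this depth in AGS, and in HGC27 it rested on 4 counts. Such longer entries were not particular to miR-629-5p. Among 11 known miRNAs with a predicted entry that was 1 base longer, the predicted entry had more counts for 7.

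miR-296-5p, the other arm of the MIR296 hairpin, did not share the values of miR-296-3p. It had 16 counts in HGC27 negative and 11 in HGC27 positive, with 5.50 (3.15 to 8.94) and 3.98 (1.99 to 7.12) per 1000000 tags, and was not listed in AGS. The table lists no count below 2, so that absence can stand for 0 or 1 counts. Taken as 0, its exact Poisson upper limit was 0.514 per 1000000 tags in AGS negative and 0.863 in AGS positive. Both lie below the HGC27 intervals on the divisors of the deposited scores. That order depends on the scaling, and limits under other scalings were not computed. A count of 1 would give higher limits, which were not computed. The ratio of miR-296-5p in HGC27 was 0.714 and the fold of the counts 0.723 (0.303 to 1.66), so a difference between the probes was not detectable at this depth. In the fit of all 4 libraries with the cell line as covariate, its log2 change with the positive probe was -0.28 ± 1.16 (SE, edgeR quasi-likelihood). DESeq2 put it at 0.12 ± 4.76. With no counts in AGS, both values rest on 1 HGC27 library per probe, and no p is given. At an adjusted p under 0.05, 7.01% of the 271 entries tested were called for the probe. The change of the picked miRNAs in the same fit, as a description, was 4.13 for miR-296-3p, 4.77 for miR-629-5p and 3.60 for the longer entry on the log2 scale.

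The share of an arm does not depend on how libraries are scaled. miR-296-3p made up 84.8% of the counts of both arms in HGC27 negative (89 of 105, Wilson 95% interval 76.7% to 90.4%) and 97.9% in HGC27 positive (510 of 521, 96.3% to 98.8%). The odds of the 3p arm were 8.29 times as high with the positive probe (exact interval 3.48 to 20.5). Differences of this size were seen at other hairpins. Over 43 hairpins with at least 10 counts of each arm in both HGC27 libraries, the log2 odds change between the probes had a median size of 1.37. It was 3.06 at MIR296, and 8 hairpins (18.6%), MIR296 itself included, differed by at least as much in either direction. A miR-199a and a miR-199b hairpin, both among these 8, had the same 3p counts (7692 and 58). Arms with ratios on opposite sides of 1, as at MIR296, made up 48.8% of the hairpins. In AGS only the 3p arm was listed, with 8 and 487 counts. The MIR629 hairpin gives no such share because only its 5p arm was listed.

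**Figure D3:**
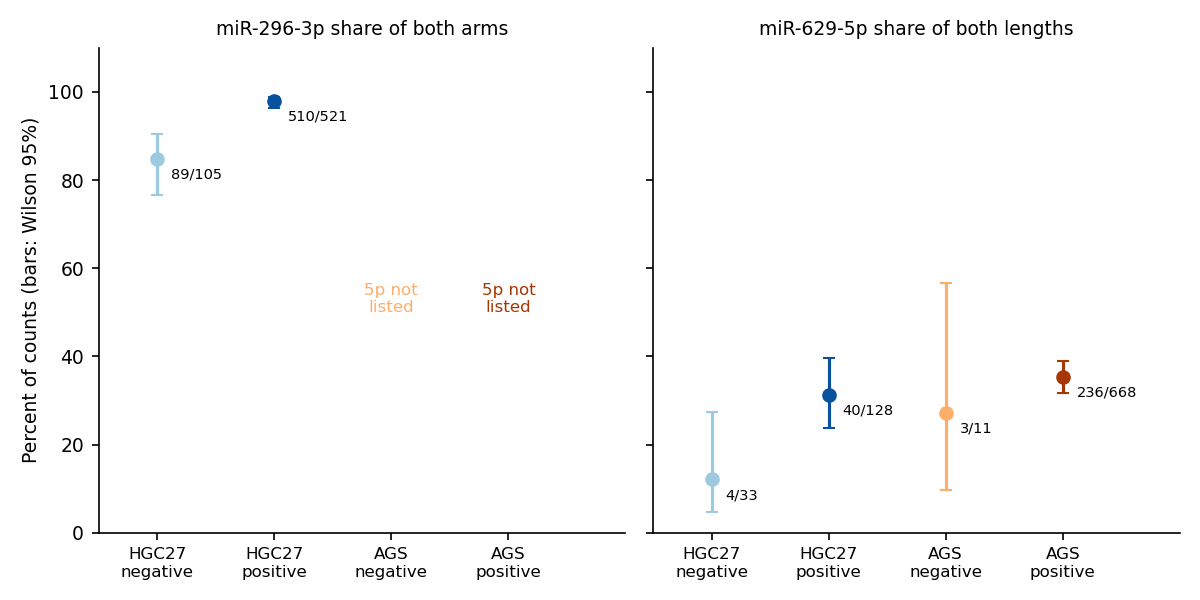
Percent of counts with Wilson 95% intervals in each library, as miR-296-3p of both MIR296 arms (left) and as the known length of miR-629-5p of both lengths (right), with the counts beside the points. miR-296-3p goes from 84.8% to 97.9% between the probes in HGC27, and the intervals of the known miR-629-5p length overlap within AGS.

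Between the lines, the positive over negative fold was larger in AGS for both miRNAs. This was not particular to them. The other miRNAs carried forward had folds in HGC27 and AGS of 36.8 and 408 (miR-423-5p) and of 6.11 and 46.2 (let-7i-5p). The AGS fold was 17.0 times the HGC27 fold for miR-296-3p (exact interval 8.12 to 40.9), 12.6 times for miR-629-5p (2.02 to 88.0) and 28.4 times for the longer entry (12.1 to 73.9). With 1 library per group the difference between the lines was not tested beyond counting error. For miR-296-3p the gap lay on the side of the negative probe. HGC27 negative held 27.5 times as much per tag as AGS negative (13.4 to 65.6), while HGC27 positive held 1.62 times as much as AGS positive (1.43 to 1.84). For miR-629-5p the values with both probes went into it, and that with the negative probe was imprecise. AGS positive held 3.82 times as much as HGC27 positive (2.72 to 5.48). HGC27 negative held 3.29 times as much as AGS negative, on 4 and 3 counts, with an interval that spans 1 (0.557 to 22.5). For the longer entry, HGC27 negative held 8.95 times as much as AGS negative (3.99 to 22.7). With the positive probe, AGS held 3.17 times as much of it as HGC27 (2.52 to 4.04).

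These comparisons of level between the lines depend on the scaling. miR-372-3p took 80.8% of the AGS negative counts, and its part in this was not tested. With TMM scaling, which sets the bulk of the entries level, HGC27 negative held 3.35 times as much miR-296-3p as AGS negative, and HGC27 positive held 0.340 times as much as AGS positive, so the direction with the positive probe turned. For miR-629-5p, TMM put AGS positive at 18.2 times HGC27 positive and HGC27 negative at 0.402 times AGS negative, so the direction with the negative probe turned. In the edgeR fit of all 4 libraries, where each line had 1 library per probe, the log2 level in HGC27 minus AGS was -0.25 ± 1.23 for miR-296-3p (adjusted p = 0.875). It was -3.31 ± 1.35 for miR-629-5p (edgeR adjusted p = 0.0489), lower in HGC27, and -2.27 for the longer entry (adjusted p = 0.202). With 4 and 3 counts in the negative probe libraries, miR-629-5p passed the filter on low counts through the positive probe ones (40 and 236 counts). Since miR-629-5p and miR-296-3p were both picked for being high with the positive probe, their p-values for the line are a description only. The same holds for the longer entry, which repeats miR-629-5p. The median of all 271 entries was 0.63, and 29.9% were called for the line. With library totals in place of TMM that median was 3.17, the value of miR-629-5p was -0.89 (edgeR adjusted p = 0.613) and that of miR-296-3p was 2.26 (adjusted p = 0.137), so the call was lost for the first and the direction turned for the second. miR-296-5p was listed in HGC27 alone and passed the filter on low counts only through that line. Its adjusted p for the line was 0.0155 in edgeR, and 0.782 without the filter. No fold is read from these fits, as it was not listed in the AGS libraries.

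**Figure D4:**
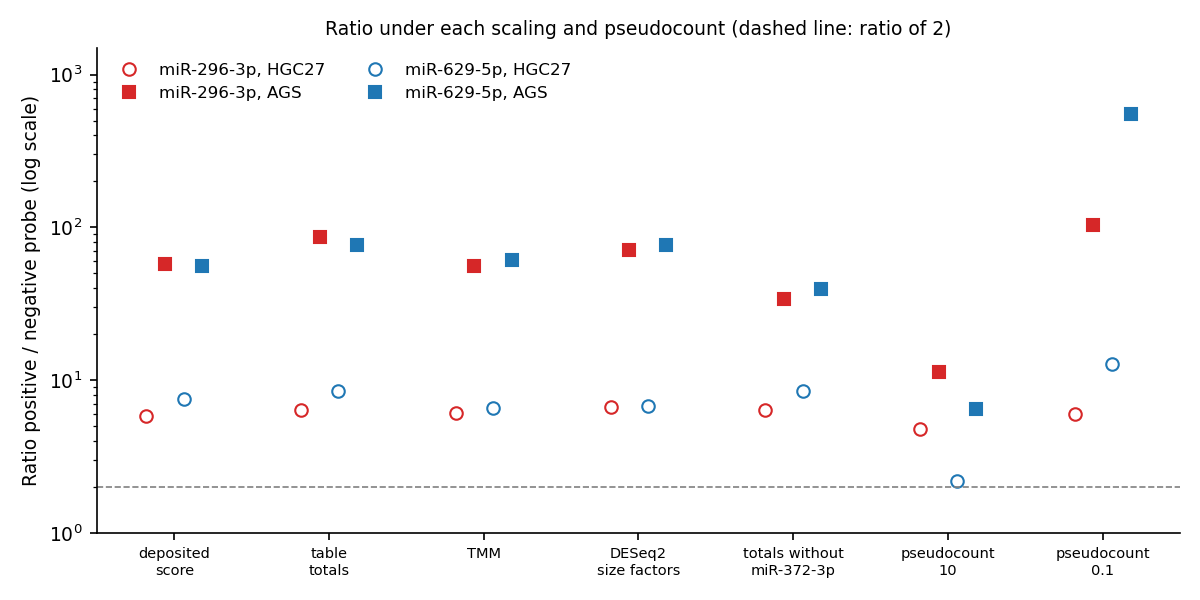
Ratio of positive over negative probe (log scale) of miR-296-3p and miR-629-5p in HGC27 (open circles) and AGS (filled squares) under 5 ways of scaling and 2 further pseudocounts, with a ratio of 2 as the dashed line. Every ratio stays above 2, and the AGS ratios range from 6.50 to 551 with the pseudocount.

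Likeness of profile was measured as the distance between log2(score + 1) values, centred over the 4 libraries, against 355 entries with at least 20 counts in all. Nearest to miR-296-3p were miR-98-5p (distance 1.02), miR-6747-3p (1.03) and let-7f-5p (1.14). miR-98-5p, of the let-7 family, had 435 and 1989 counts in HGC27 and 78 and 1130 in AGS. miR-6747-3p, rarer than miR-296-3p in each library, had 27 and 166 in HGC27 and 3 and 84 in AGS. Nearest to miR-629-5p was let-7e-5p (0.699), with 1841 and 8948 counts in HGC27 and 1148 and 49613 in AGS, followed by a pair of predicted entries of 1 sequence on chromosome 5 (1.25). The longer entry of miR-629-5p came next (1.28). Nearest to miR-296-5p were miR-3187-3p (distance 0), miR-15a-5p (0.279) and a predicted entry on chromosome 7 (0.279), all with at most 17 counts in a library.

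miR-296-3p and miR-629-5p are rich in G, and this was not used to pick them. G made up 50.0% of miR-296-3p and 38.1% of miR-629-5p, against a median of 27.3% over the 843 entries. A share at least that high was found in 5.22% and 21.9% of the entries. Each of them holds 2 separate runs of GGG, which 48 of 843 entries (5.69%) do, and the longest run of bases they share is GUUGGG, which 9 entries (1.07%) hold. In HGC27 a ratio of at least 2 was found for 9 of 17 entries with at least 2 such runs and at least 10 counts, for 24 of 78 with 1 run and for 70 of 271 with none. In AGS it was found for 4 of 7, 21 of 50 and 68 of 173. The first count of each line includes miR-296-3p, miR-629-5p and its longer entry, and without them it was 6 of 14 in HGC27 and 1 of 4 in AGS. The runs are few, entries of 1 library share its depth, and these counts are a description.

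The FN1 3′-UTR of the annotated transcript (ENST00000336916.8) lies on chromosome 2 of GRCh38 from 215360454 to 215361554, on the minus strand, with a length of 1101 bases. The complement of bases 2 to 8 of miR-296-3p, CAACCCT, and that of miR-629-5p, TAAACCC, are absent from these letters on either strand, as are those of miR-296-5p and miR-629-3p. Among 2303 annotated 3′-UTRs within 20% of this length, 6.99% hold CAACCCT and 4.69% hold TAAACCC on the sense strand. The complement of bases 2 to 7 was absent from the sense strand for all 4 arms. On the antisense strand the complements AACCCT (miR-296-3p) and AAACCC (miR-629-5p) each occurred once and overlapped in a single run of 7 bases, AAACCCT, at positions 914 to 920 counted from the 5′ end of the antisense RNA. The run is in capitals in this window of positions 904 to 930.
antisense of the FN1 3′-UTR: auuuaugagaAAACCCUcaggaaacuc

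AACCCT occurs on the antisense strand of 22.7% of the same 3′-UTRs, AAACCC on that of 31.8% and AAACCCT on that of 10.3%. These matches are of letters only and show no site in use.

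Pairing over the whole miRNA was then predicted with RNAduplex for all 843 entries against each strand. miR-296-3p reached -26.4 kcal/mol with the sense strand, where the median entry reached -16.9, and 8 entries had a stronger predicted duplex. Its predicted site at bases 1020 to 1037 of the 3′-UTR paired 5 of the 7 seed bases. Bases that pair are in capitals here, 5′ to 3′ on both lines.
FN1 3′-UTR: cCCUCCACCUuuCCUUCa
miR-296-3p: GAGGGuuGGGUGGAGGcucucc

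miR-629-5p reached -18.9 kcal/mol with the sense strand, at bases 122 to 143, and 254 entries were stronger. Its predicted site also paired 5 of the 7 seed bases and then a run at the 3′ end.
FN1 3′-UTR: aAGUUCUCCAGCuucAGCUCAa
miR-629-5p: UGGGUUuacGUUgGGAGAACU

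With the antisense strand miR-296-3p reached -20.0 kcal/mol (174 entries stronger) and miR-629-5p -18.9 (259 stronger), against a median of -17.5. All 7 seed bases were paired in both predictions, G with U included. The site of miR-296-3p at 896 to 922 spanned the AAACCCT run, while that of miR-629-5p at 927 to 945 did not. Only the ACCCT part of the run was paired in it. A stretch of unpaired bases of the strand split the pairing of the miR-296-3p seed, so this was no unbroken seed match. All 7 were also paired for miR-423-5p and miR-629-3p, but 5 for let-7i-5p and 4 for miR-296-5p. Over the entries with at least 10 counts, the strength of the sense duplex and the log2 ratio had a Spearman rho of 0.32 in HGC27 (Pearson r 0.29, n = 366) and 0.26 in AGS (0.26, n = 230). For the antisense duplex rho was 0.31 (r 0.29) and 0.24 (r 0.22). These are correlations across entries of the same libraries, which share base composition and depth, and carry no p.

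**Figure D5:**
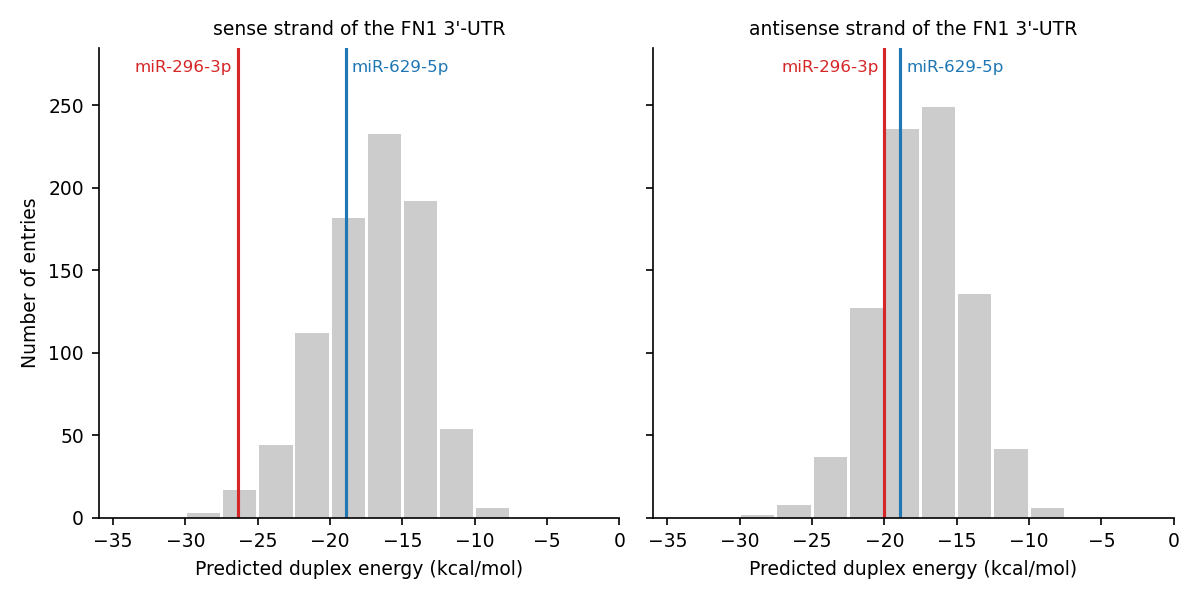
Number of entries by predicted duplex energy (kcal/mol, further left is stronger) with the sense (left) and antisense (right) strand of the FN1 3′-UTR, with miR-296-3p and miR-629-5p as lines. miR-296-3p stands at -26.4 with the sense strand, in the left tail, and at -20.0 with the antisense strand.

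The study also predicted sites for both miRNAs in the FN1 3′-UTR with RNA22. It made mimics of both with the sequences of the table, and mutant mimics with 8 bases changed in each. In its luciferase assays both mimics inhibited a reporter with the FN1 3′-UTR, and the mutants brought no change. The mutants are shown because they differ in where the changes lie. Changed bases are in capitals.
mutant of miR-296-3p: CUCCgAuggguCCUggcucucc
mutant of miR-629-5p: uggguuuacguugCCUCUUGA

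In the mutant of miR-296-3p the changes lie from base 1 to base 14 and 4 of them are in the seed. In that of miR-629-5p they lie from base 14 to base 21 and 0 are in the seed. The predicted sense duplex was -26.4 kcal/mol for miR-296-3p and -22.9 for its mutant, and -18.9 for miR-629-5p and -15.7 for its mutant. With the antisense strand the values were -20.0 and -19.7 for miR-296-3p, and -18.9 and -22.4 for miR-629-5p, whose mutant was thus predicted to pair more strongly with that strand.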

How the data were processed

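RNA pull-down followed by miRNA sequencing was analysed in HGC27 and AGS cells, 1 library per line and probe. The authors deposited raw counts of tags per mature miRNA, the lowest being 2, with blanks taken as 0 and the 901 rows collapsed to 843 names. A second deposited file held a score, the tags scaled to 1000000 and rounded. The submitters' processing notes name cutadapt 1.9.3, Novoalign 3.02.12 and hg38. Divisors were recovered from counts and scores, and why they exceed the table totals is not given in the sources used here. A continuous unit had been planned for, and the same ratio was formed from the rounded values.

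Groups were taken from the labels. Folds carry exact conditional binomial intervals, levels exact Poisson intervals and shares Wilson intervals, all at 95% (scipy 1.17.1, Python 3.11.15). The counts of all 4 libraries were fitted in edgeR 4.0.16 (R 4.3.3) by quasi-likelihood with TMM, filterByExpr, line and probe, with Benjamini-Hochberg adjustment over 271 entries. Lines and probes stood in for replicates, with 1 residual degree of freedom and a common biological coefficient of variation of 0.612. That degree of freedom is the difference of the probe effect between the lines, not a spread between replicates. With TMM and the filter, edgeR estimated its prior degrees of freedom as infinite. The p-values of this fit thus rest on a spread pooled over the entries, not on that of each entry. They measure only the spread between these libraries. The scripts were tested on simulated data. DESeq2 1.42.0 was an alternative. Duplexes were predicted with RNAduplex (ViennaRNA 2.7.2), and sequences are from RefSeq (GRCh38.p14) and, for the 3′-UTR, GENCODE on GRCh38.

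Named miRNAs were the 4 arms, entries sharing at least 15 consecutive bases or bases 2 to 8 with one of them, listed miRNAs with a hairpin within 10 kb, miR-423-5p and let-7i-5p, the entries at the edge of the 10 most enriched, the 3 nearest profiles per arm, and the most abundant miRNA of each line. Entries sharing bases 2 to 7, and the marker miRNAs, were looked at as well. The members and lists were chosen with earlier results of these data known.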

Additional observations from a re-analysis of the deposited data

How the results depend on the processing

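Every ratio of miR-296-3p and miR-629-5p stayed above 2 under each scaling and pseudocount tried. With a pseudocount of 10 the ratio of miR-296-3p was 4.76 in HGC27 and 11.3 in AGS, and that of miR-629-5p 2.18 and 6.50. On totals that leave out miR-372-3p the AGS ratios were 33.8 and 39.4. The ratio of miR-296-5p in HGC27 stayed below 1, from 0.672 to 0.875. miR-296-5p in AGS and miR-629-3p were not listed and gave no ratio. The number of entries with a ratio of at least 2, 283 in HGC27 and 181 in AGS, was 103 and 93 with at least 10 counts, 157 and 118 among known entries, 60 and 63 at a threshold of 4, and 42 and 55 with a pseudocount of 10. The line effect of miR-296-3p turned to 2.26 on library totals. That of miR-629-5p was -0.89 on library totals (edgeR adjusted p = 0.613) and -3.12 without the filter on low counts (adjusted p = 0.367). The edgeR line effect of miR-296-5p was 6.16 without the filter (adjusted p = 0.782). With no listed count of miR-296-5p in AGS, the size of this value is not a measured fold. Without the filter 843 entries were tested and 0 were called for the line by edgeR, with 95 at an unadjusted p under 0.05, against 81 with it, while DESeq2 called 62. For the probe, edgeR called 19 entries, 0 on library totals (52 at an unadjusted p under 0.05), 0 without the filter (66 at an unadjusted p under 0.05), and DESeq2 called 49. DESeq2 put the line effect of miR-629-5p at -3.40 (adjusted p = 0.0229) and gave no adjusted p for miR-296-5p. All p-values of miR-629-5p and miR-296-3p for the line are a description only, for the reason given above. Merging entries that share 15 bases left the arm shares of MIR296 as they were. The only such entry named was the longer one of miR-629-5p, so the merge was no check on those shares. No library could be left out of a ratio, as each group had 1. The edgeR fit with the cell line as covariate sets the probes against each other within a line, and no other pairing was fitted, since the labels give no replicate numbers. Depth limits the ratios of miR-629-5p, with 4 and 3 counts in the negative probe libraries, and those of miR-296-5p, with 16 and 11 counts in HGC27.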
